A study of Micropterus salmoides with 45 samples.

Results

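Small RNA from the liver of largemouth bass (Micropterus salmoides) was followed through 24 h of moderate hypoxia. The 15 libraries of the moderate hypoxia fish, 3 at each of 0, 4, 8, 12 and 24 h, were chosen by their labelled oxygen level and hour from 45 libraries in all, and each later hour was set against 0 h and against the hour before. The fish were 6 months old and were kept at 20 °C without food at 3.0 ± 0.2 mg/L dissolved oxygen, with 3 tanks at each oxygen level and 30 fish in a tank. Nitrogen lowered the oxygen over up to 2 h, and the end of that step is 0 h, so the 0 h fish had already met falling oxygen and are no untreated baseline. Control fish at 7.0 ± 0.2 mg/L oxygen gave 15 libraries at the same hours and fasted in the same way. The remaining 15 libraries, from fish at 1.2 ± 0.2 mg/L, entered the fit but no comparison here. The series' own design text names common carp and temperature groups, at odds with the label of every sample, which gives largemouth bass and oxygen levels; the sample labels were followed. The labels tie no library to a tank or a fish and do not say whether livers were pooled, so p-values measure the spread between libraries and may leave out the spread between fish.

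A microRNA is a short RNA cut from the stem of a hairpin precursor. It guides a silencing complex to messenger RNAs that pair with its seed, and each hairpin can give a mature product from its 5p arm and from its 3p arm. Most liver microRNA comes from hepatocytes, in which miR-122 is the characteristic species, while vessels, blood, connective tissue and, in many bony fishes, exocrine pancreas lying along the portal vessels add their own. Low oxygen acts on microRNAs partly through hypoxia-inducible factor, which in many vertebrates induces miR-210 and in zebrafish the miR-462 and miR-731 cluster.

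The deposited values are in rpm, a read count scaled to the size of its library, for 266 named mature miRNAs, 139 of the 5p and 127 of the 3p arm, and 208 of them were above 0 in all 15 moderate hypoxia libraries. miRNAs are of nearly equal length, so no scaling for length was needed. miR-122-5p was present in every library, at 4029 to 39344 rpm, as the marker of hepatocytes. Depth was read from the spacing of low values, which put the 15 libraries between 1.13 and 4.49 mega-reads (median 1.67).

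A feature of the deposited values limits what the replicates can show. The moderate hypoxia groups hold 1188 sets of 3 values above 0, and in 1015 of these (85.4%) averaging 2 of the values gave the remaining one. In a further 12.3% the 3 values were identical. Such values were not counted as measurements, so means carry n = 2, or n = 1 and no SD where the 3 values were identical, unless another n is given. Below, the 3 deposited values of a group are printed in library order, and the one equal to the mean of the others can be read off. A group with 1 measured value took its spread from the other groups in the fit.

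The sum of the listed miRNAs changed with the hour. It began at 643170 ± 12435 rpm (SD, n = 3 deposited sums), went down to 474404 ± 43303 by 4 h and 441079 ± 34307 by 8 h, peaked with 942465 ± 16810 after 12 h and ended with 354710 ± 19865. The hours did not overlap except for 4 h and 8 h. In control fish the sum was 630942 ± 17863 rpm at 0 h, 753370 ± 12258 at 4 h, 795919 ± 46026 at 8 h, 791537 ± 14658 at 12 h and 333215 ± 30245 at 24 h. Both oxygen levels had their lowest sum at 24 h. At 4 and 8 h the sum was below that of 0 h in hypoxia and above it in control. What the deposited rpm were divided by is unknown here. A miRNA that kept its place among the listed miRNAs therefore rose or fell in rpm with this sum, and each result below is given in rpm and as a share of the listed total. In bulk liver, fewer cells of a type and less miRNA per cell cannot be told apart.

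**Figure D1:**
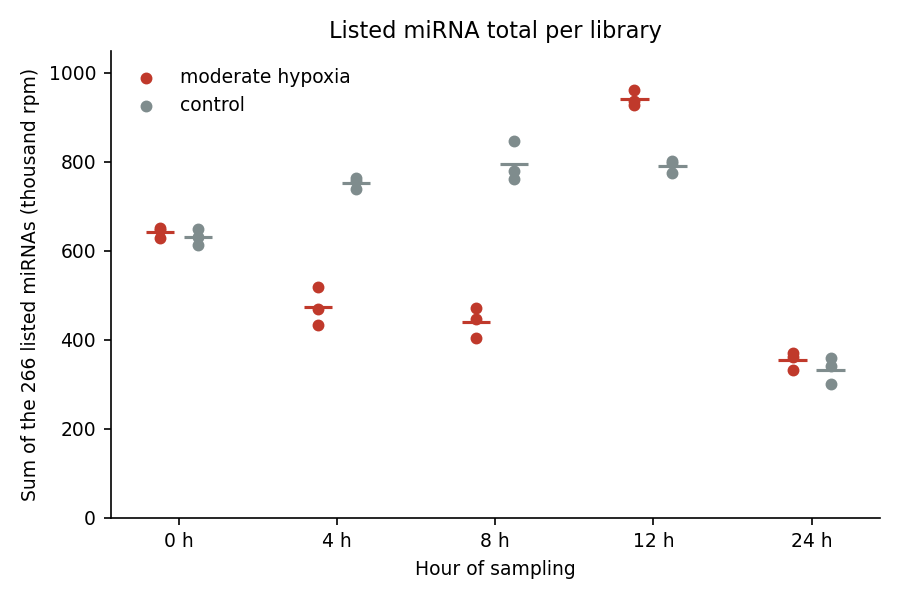
Sum of the 266 listed miRNAs in each library (points, in units of 1000 rpm) by hour of sampling, with the mean of the 3 libraries as a bar, for moderate hypoxia and control. The moderate hypoxia sum was 942465 rpm at 12 h and 354710 rpm at 24 h, the highest and lowest of its 5 hours.

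Over the 5 hours, 170 of 200 tested miRNAs changed in rpm (85.0% called) and 140 as a share (70.0%), by limma's F-test at an adjusted p under 0.05, and 64.0% did both. Among those called on both, the share was highest at 0 h for 48, at 4 h for 27, at 8 h for 17, at 12 h for 14 and at 24 h for 22. The share was lowest at 0 h for 13, at 4 h for 34, at 8 h for 8, at 12 h for 34 and at 24 h for 39. The rule by which values were replaced is not known, and if extreme values were the ones replaced, errors are too small. With standard errors widened 2.5 times 6 miRNAs were called in rpm (3.0%), namely miR-125b-5p, miR-126a-3p, miR-126b-3p, miR-199-5p, miR-365-3p and miR-99-5p, and 3 as a share (1.5%), miR-122-5p, miR-126a-3p and miR-126b-3p.

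Against 0 h, the rpm scale gave mostly falls at 4, 8 and 24 h and mostly rises at 12 h, whereas the share scale gave more falls than rises at every hour. At 4 h 86 of 213 miRNAs were called in rpm (40.4%), 3 higher (1.41%) and 83 lower (39.0%), and 50 as a share (23.5%), 14 higher (6.57%) and 36 lower (16.9%). At 8 h 86 of 215 were called in rpm (40.0%), 7 higher (3.26%) and 79 lower (36.7%), and 34 as a share (15.8%), 16 higher (7.44%) and 18 lower (8.37%). At 12 h the scales went opposite ways, with 43 higher (19.9%) and 21 lower (9.72%) in rpm (29.6% called) and 14 higher (6.48%) and 69 lower (31.9%) as a share (38.4%). At 24 h 61.8% of 204 were called in rpm, 8 higher (3.92%) and 118 lower (57.8%), and 85 as a share (41.7%), 29 higher (14.2%) and 56 lower (27.5%). Scaled instead by the median of ratios, the higher and lower calls numbered 20 and 28 at 4 h, 16 and 17 at 8 h, 33 and 27 at 12 h, and 38 and 44 at 24 h. The median of all tested miRNAs stood at log2 -0.46, -0.61, 0.02 and -0.96 in rpm at the 4 hours and at -0.07, -0.12, -0.44 and -0.13 as a share. Called the same way on both scales were 3 higher and 36 lower at 4 h (18.3% of those tested), 7 and 18 at 8 h (11.6%), 14 and 21 at 12 h (16.2%), and 8 and 56 at 24 h (31.4%). Counts of list members below are to be read against these shares. The miRNAs named below are of this kind unless stated, and the 4 comparisons share the 0 h libraries.

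**Figure D2:**
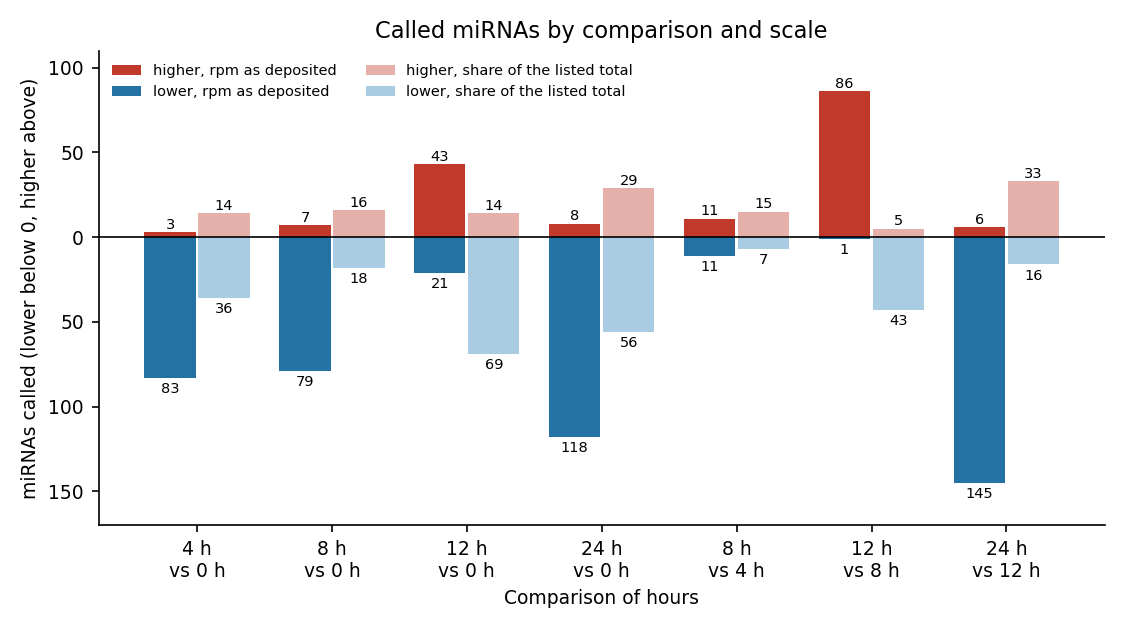
Number of miRNAs called higher (above 0) and lower (below 0) in each comparison of hours, in rpm as deposited (dark) and as a share of the listed total (light), by limma at an adjusted p under 0.05. At 12 h against 8 h 86 were higher and 1 lower in rpm but 5 higher and 43 lower as a share.

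At 4 h miRNAs of the exocrine pancreas fell several-fold. miR-216b-5p, a marker of acinar cells, was at 323.09, 399.99 and 246.18 rpm at 0 h and at 52.06, 26.65 and 39.36 rpm at 4 h. All 4 h values lay below all 0 h values, as the choice of the largest falls required. The fall was 8.21-fold in rpm (log2 -3.04, SE 0.38, adjusted p = 8.1e-06) and 6.07-fold as a share (log2 -2.52). miR-217-5p, encoded beside miR-216 in vertebrates and also abundant in acinar cells, went from 475.18, 602.55 and 347.82 rpm to 111.89, 38.38 and 75.14 (log2 -2.78, SE 0.51, adjusted p = 0.00032). miR-216a-5p fell from 24.3 to 3.13 rpm (log2 -2.54, adjusted p = 0.000291). Of the 6 tested pancreas markers these 3 exocrine ones fell on both scales. The other 3, miR-375-5p, miR-7a-3p and miR-7a-5p, which mark endocrine cells, were not called and stood at log2 0.95, 2.25 and 0.18 in rpm. The median of the 6 was log2 -1.18 in rpm and -0.81 as a share, beside -0.46 and -0.07 for all tested miRNAs. The summed pancreas list averaged 839 rpm at 0 h, 159 at 4 h, 173 at 8 h, 538 at 12 h and 258 at 24 h. As a share its mean was 0.13% at 0 h, 0.0333% at 4 h, 0.0402% at 8 h, 0.0572% at 12 h and 0.0731% at 24 h. On both scales the lowest library of 0 h (624 rpm and 0.0963%) stood above every later one, while the order of 12 h and 24 h depended on the scale. How much pancreatic tissue each liver piece held was not tested.

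Other falls at 4 h included miRNAs best known from neurons and epithelia. Of 11 tested neuron markers 3 fell on both scales, with a median of log2 -0.53 in rpm and -0.26 as a share. The summed neuron list, led by miR-128-3p (2419 rpm at 0 h and 2753 at 4 h, not called), overlapped between the hours, at 2156 to 3017 rpm at 0 h and 1785 to 3800 rpm at 4 h. miR-153b-3p, abundant in brain, went from 37.73, 42.47 and 33 rpm to 5.98, 1.6 and 3.79 rpm, a fall of 9.96-fold (log2 -3.17, SE 0.38, adjusted p = 6.48e-06). miR-137-3p, a neuronal miRNA, was listed at 86.49 rpm in all 3 libraries at 0 h and at 8.72 rpm in all 3 at 4 h (log2 -3.17, adjusted p = 0.00348), so this fall rests on 1 measured value in each group. The miR-200 family maintains epithelial character in mammals by repressing ZEB factors. Of 11 tested epithelium markers 4 fell on both scales, namely miR-200a-3p, miR-200b-3p, miR-200b-5p and miR-429a-3p. miR-200a-3p was at 1767 rpm at 0 h and 607 rpm at 4 h (log2 -1.68, adjusted p = 0.000528) and miR-429a-3p at 352 and 102 rpm (log2 -2.01, adjusted p = 0.000196). The epithelium markers not called as a share ranged from log2 -0.97 (miR-141-3p) to 0.8 (miR-205-5p) on that scale. The summed epithelium list stood at 2668 to 2725 rpm at 0 h and 629 to 1324 rpm at 4 h. Low sums at 4 h were not particular to pancreas and epithelium. The leukocyte list went from 0.576% to 0.745% of the listed total at 0 h to 0.31% to 0.501% at 4 h. The hypoxia-associated list went from 0.862% to 1.13% to 0.312% to 0.48%. Both sums were mostly a single miRNA, miR-142a-5p (3837 of 4298 rpm at 0 h) and miR-462-5p (5923 of 6367 rpm). As a share miR-142a-5p and miR-142b-5p were called lower at 4 h. The leukocyte markers miR-150-5p (log2 -3.09), miR-142a-3p and miR-142b-3p (0.11) and miR-155-5p (0.02) were not called as a share.

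Some let-7 members fell at 4 h. let-7d-5p fell from 2096 to 431 rpm (log2 -2.47, adjusted p = 8.1e-06) and let-7c-5p from 1186 to 332 rpm (log2 -1.96, adjusted p = 9.06e-05), and 4 of 17 tested members fell on both scales, against 16.9% of all tested miRNAs. The median of the family, log2 -0.37 in rpm and 0.06 as a share, was close to that of all tested miRNAs, and let-7b-3p was higher as a share (log2 0.98, adjusted p = 0.0117). The abundant let-7e-5p was at 21958 rpm at 0 h and 18198 at 4 h and was not called (log2 -0.32, adjusted p = 0.334). Members of this family differ by few bases and reads may be shared among them.

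The rises at 4 h on both scales were 3 (1.41% of those tested), both arms of miR-460, a miRNA known mainly from fish and birds, and miR-20b-5p. The last was at only 1.4 rpm at 0 h and 3.18 rpm at 4 h (log2 0.81, adjusted p = 0.0482). Its dependence on single libraries is not reported here. miR-460-3p was at 126.35, 176.7 and 227.04 rpm at 0 h and 382.35, 477.38 and 572.42 at 4 h, with no overlap, as the choice required. The rise was 2.7-fold in rpm (log2 1.46, SE 0.35, adjusted p = 0.00288) and 3.67-fold as a share. miR-460-5p rose from 113 ± 33.9 to 282 ± 99.6 rpm (log2 1.29, adjusted p = 0.021). The rises of the miR-460 arms hung on single libraries. Without library 1 of 0 h neither was called (log2 1.04, adjusted p = 0.0581 for the 3p arm and 0.99, adjusted p = 0.172 for the 5p arm), nor was the 5p arm without library 3 of 4 h (0.92, adjusted p = 0.15). Without library 2 of 4 h the count of miRNAs called in rpm was 50. With widened standard errors limma called 0 at 4 h (0.0%), with 19 at an unadjusted p under 0.05.

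**Figure D3:**
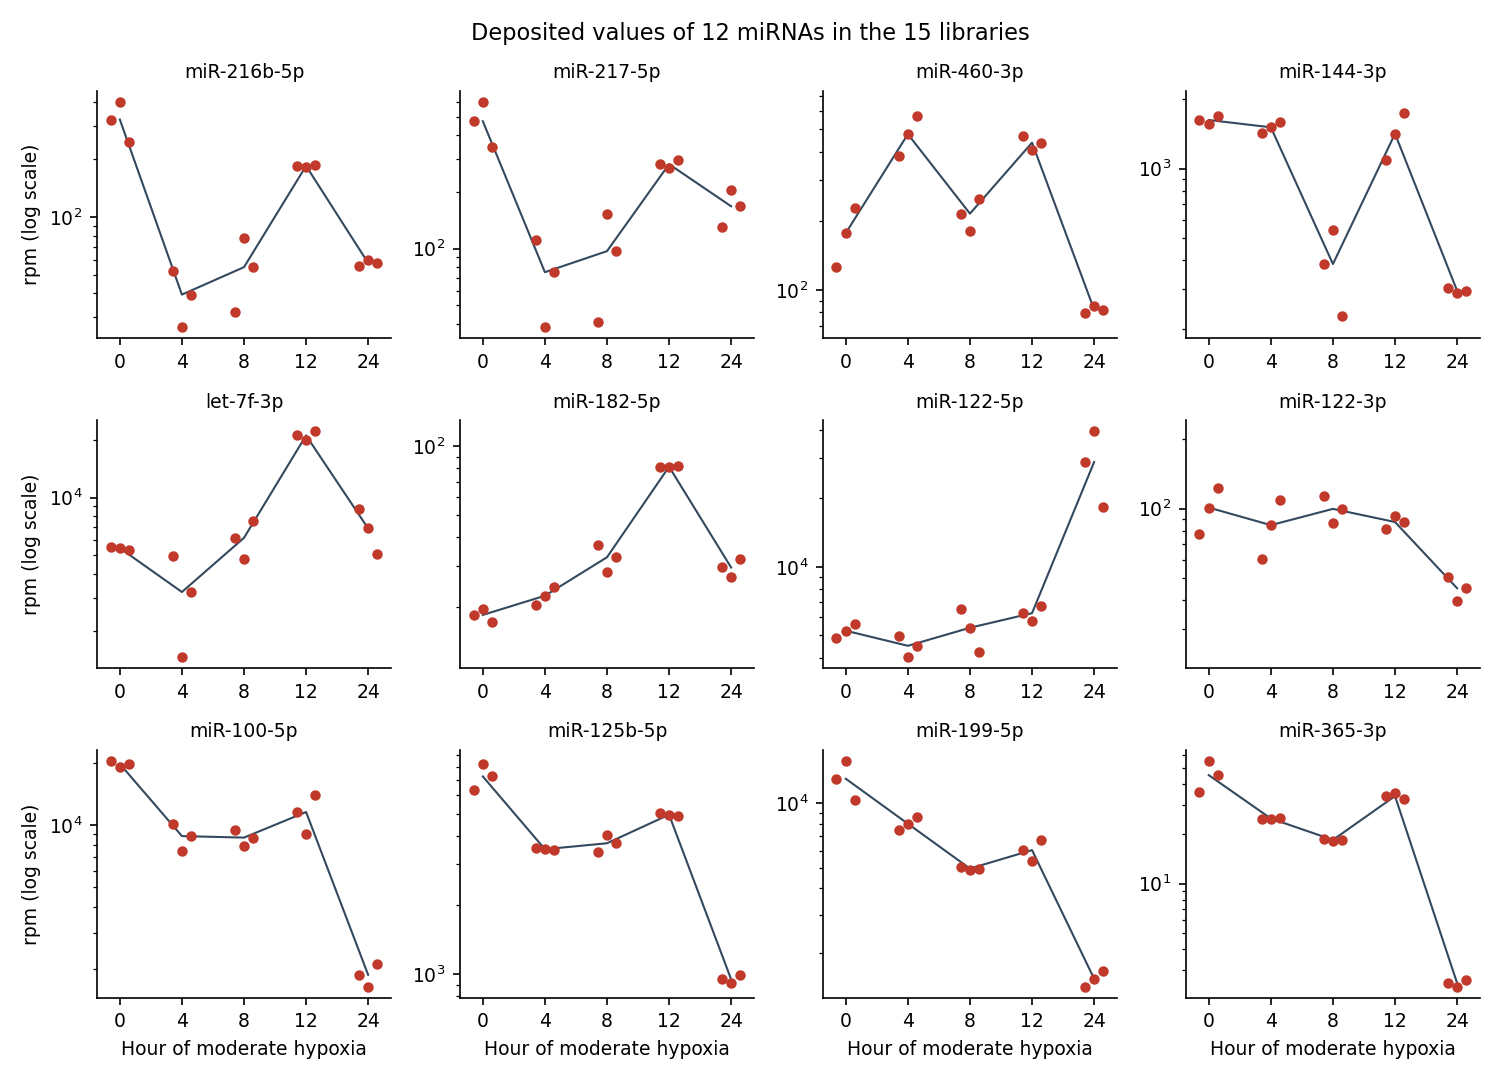
Deposited rpm (log axis) of 12 miRNAs in the 15 moderate hypoxia libraries by hour, with points for the 3 libraries and a line through the hour means of the measured values. miR-122-5p stood at 5248 rpm at 0 h and 28878 at 24 h, while miR-100-5p went from 19729 to 1877 rpm.

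At 8 h the 3 exocrine pancreas markers were still low, and an endothelial and an erythroid miRNA had dropped. miR-126b-3p, of the miR-126 pair that endothelial cells express, was at 11973.5, 12121.4 and 12269.4 rpm at 0 h and at 19.33, 0 and 19.64 rpm at 8 h. The fitted difference was log2 -10.66 (SE 0.81, adjusted p = 1.38e-08), and it was the 1 miRNA still called at 8 h with widened standard errors (0.465%). No other tested endothelium marker was called as a share at 8 h. In rpm miR-126a-5p, miR-221-3p and both arms of miR-222a were lower, and miR-126b-5p (3906 rpm, adjusted p = 0.49) and miR-126a-3p (8292 rpm, 0.0596) were not called. In control fish miR-126b-3p was also near 0, at 4 h (12.3 rpm), 12 h (65.3 rpm) and 24 h (6.38 rpm). miR-144-3p, processed from the erythroid miR-144 and miR-451 locus, was at 1627.45, 1565.96 and 1688.93 rpm at 0 h and 383.59, 539.52 and 227.65 at 8 h, a fall of 4.24-fold (log2 -2.21, SE 0.42, adjusted p = 0.00104; as a share 2.86-fold, adjusted p = 0.0166). Its partner arm miR-144-5p went from 638 to 441 rpm and was not called (log2 -0.51, adjusted p = 0.38). miR-216b-5p, miR-217-5p and miR-216a-5p were 5.89-, 4.9- and 4.67-fold below 0 h, and miR-217-5p moved from log2 -2.51 to -1.57 without library 1 of 8 h.

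The rises at 8 h on both scales were 7 (3.26%). miR-19d-5p, of the miR-17 to miR-92 cluster, was at 2.47, 2.55 and 2.64 rpm at 0 h and 8.16, 7.26 and 9.07 at 8 h (log2 1.36, adjusted p = 0.00553; as a share 1.88). miR-182-5p and miR-183-5p, of the cluster expressed in sensory cells and in many epithelia, were the 2 tested of the miR-183 cluster and both rose, miR-182-5p from 18.4 to 32.8 rpm (log2 0.79, adjusted p = 0.0436) and miR-183-5p from 3.65 to 8.37 rpm (log2 1.02, adjusted p = 0.0108). miR-205-5p, an epithelial miRNA, was at 15.0 and 39.1 rpm (log2 1.4, adjusted p = 0.0409), miR-460-5p at 113 and 264 rpm (1.25, 0.0259), let-7g-3p at 26.6 and 42.8 rpm (0.68, 0.0413) and miR-19b-3p at 1265 and 1850 rpm (0.55, 0.0381). The calls of miR-205-5p, miR-460-5p, miR-19b-3p, let-7g-3p and miR-182-5p were lost in rpm when a single library was left out. For miR-19d-5p and miR-183-5p, both of a few rpm at 0 h, the dependence on single libraries is not reported here. miR-205-5p was lost without library 3 of 0 h or library 2 or 3 of 8 h (adjusted p = 0.0963 to 0.26) and miR-460-5p without library 1 of 0 h or library 1 or 3 of 8 h (0.0731 to 0.167). For miR-19b-3p it was library 1 of 0 h or library 3 of 8 h (0.222 to 0.224), for let-7g-3p libraries 1 and 2 of 0 h and 2 and 3 of 8 h (0.0507 to 0.304), and for miR-182-5p 8 libraries (0.0503 to 0.224). Without library 2 of 8 h the count called in rpm at 8 h was 56.

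At 12 h a set of miRNAs rose beyond the rise of the listed total. let-7f-3p, by its name a 3p arm whose 5p arm was not listed, was at 5549.14, 5444.92 and 5340.7 rpm at 0 h and 21171.7, 20130.8 and 22212.6 at 12 h. The rise was 3.89-fold in rpm (log2 1.96, SE 0.37, adjusted p = 0.000762) and 2.65-fold as a share. miR-182-5p reached 81.3, 81.09 and 81.51 rpm from 18.36, 19.57 and 17.16 (log2 2.09, SE 0.3, adjusted p = 8.36e-05). miR-9-5p, a neuronal miRNA, went from 15.41, 14.23 and 14.82 rpm to 62.55, 73.59 and 51.52 (log2 1.99, adjusted p = 0.00422), and miR-107b-3p, of a family that acts on insulin signalling in mouse liver, from 27.12, 27.75 and 28.38 rpm to 111.65, 120.27 and 103.03 (log2 1.97, adjusted p = 0.000993). Groups without overlap were a condition for choosing these 4, so their separation adds no support.

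miR-10a-5p, encoded within a Hox cluster, rose at 12 h from 142.13, 126.51 and 157.74 rpm to 699.2, 671.54 and 726.86 (log2 2.3, SE 0.67, adjusted p = 0.0134). The call was lost without library 2 of 0 h (adjusted p = 0.0714) or library 2 or 3 of 12 h (0.0561 and 0.0627), and over the 5 hours its share was not called (adjusted p = 0.0983). It was also listed at exactly 332.97 rpm in library 3 of both 4 h and 24 h, which are separate samples by label. Such a match was not particular to miR-10a-5p, since miR-15b-5p was listed at exactly 109.8 rpm at both 0 h and 4 h.

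Much of the let-7 family rose at 12 h. Of 17 tested members 8 were higher and 4 lower in rpm, and 6 and 4 on both scales, with a median of log2 0.63 in rpm and 0.06 as a share, against 0.02 and -0.44 for all tested miRNAs. let-7a-5p, among the 5 most abundant miRNAs, went from 33632, 28231.6 and 22831.3 rpm to 73414.1, 72831.2 and 73997 (log2 1.41, adjusted p = 5.05e-05; share 4.4% to 7.79%, adjusted p = 0.00216). let-7g-5p went from 4075 to 13350 rpm (log2 1.71, adjusted p = 4.44e-06). The summed family held 10.4% to 12.3% of the listed total at 0 h, 19.1% to 19.6% at 12 h and 14.8% to 15.6% at 24 h. The 4 members lower on both scales were let-7a-3p, let-7c-3p, let-7d-3p and let-7h-3p, all 3p arms of 89.7 rpm or less at 0 h.

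Falls at 12 h ran against the rising total. miR-125a-5p, of the miR-125 family related to the worm timing gene lin-4, was at 3375.22, 3794.94 and 3585.08 rpm at 0 h and 1268.59, 1321.2 and 1373.62 at 12 h (log2 -1.44, SE 0.27, adjusted p = 0.000899; as a share -1.98). miR-199-5p, expressed by stellate cells and other stromal cells in mammalian liver, went from 13003.9, 15702.5 and 10305.2 rpm to 6041.26, 5356.62 and 6725.91 (log2 -1.08, SE 0.22, adjusted p = 0.00106). miR-145-3p, of smooth muscle and stroma, fell from 136.22, 120.06 and 128.14 rpm to 58.26, 47.02 and 69.51 (log2 -1.15, adjusted p = 0.00819), miR-16c-3p from 16.7 to 7.57 rpm (-1.04, 0.0293) and miR-1388-5p from 156 to 75.5 rpm (-1.02, 0.011). The last 3 calls were each lost without a single library, of 0 h or 12 h (adjusted p = 0.0624 to 0.105 for miR-145-3p and miR-1388-5p and 0.0528 to 0.178 for miR-16c-3p). Without library 1 of 0 h 35 miRNAs were called at 12 h and without library 2 of 12 h 36. With widened standard errors limma called 0, with 10 at an unadjusted p under 0.05.

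By 24 h the main hepatocyte miRNA stood far above all earlier hours. miR-122-5p was at 4855.11, 5248.05 and 5641 rpm at 0 h and at 28877.6, 39343.7 and 18411.6 rpm at 24 h, a rise of 5.5-fold in rpm (log2 2.36, SE 0.3, adjusted p = 1.39e-06) and 9.9-fold as a share (log2 3.24, SE 0.28, adjusted p = 4.43e-08). Between 0 and 12 h the hour means were 4504 to 6266 rpm, and none of the 3 later ones was called against 0 h on either scale (adjusted p = 0.551 to 0.985 in rpm). Its rank among the listed miRNAs was 27 at 0 h, 22 at 4 h, 18 at 8 h, 30 at 12 h and 3 at 24 h, when it held 8.07% of the listed total. The other arm of the same hairpin did not follow. miR-122-3p was at 77.66, 100.54 and 123.42 rpm at 0 h and at 50.32, 39.69 and 45 rpm at 24 h, lower in rpm (log2 -1.11, adjusted p = 0.00182) and not called as a share (log2 -0.32, adjusted p = 0.329). In control fish miR-122-5p stood at 7611 ± 1910 rpm at 0 h, 3411 at 12 h (3317 to 3505) and 12387 ± 823 at 24 h, or 1.21%, 0.431% and 3.75% of the listed total, so the 24 h mean was above the 0 h mean at normal oxygen too, a difference that was not tested. The courses of the 2 oxygen levels differed (adjusted p = 0.00068 in rpm and 0.0238 as a share).

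The other rises at 24 h were smaller in level. miR-196a-5p, encoded in the Hox clusters, was at 3.21, 3.11 and 3.3 rpm at 0 h and listed at 35.31 rpm in all 3 libraries at 24 h, which is 1 measured value (log2 3.11, SE 0.43, adjusted p = 8.5e-06). miR-7a-5p, an endocrine pancreas miRNA, was likewise listed at 15.69 rpm in all 3, from 4.78 rpm at 0 h (log2 1.53, adjusted p = 0.00833). miR-19a-3p, of the growth-promoting miR-17 to miR-92 cluster, rose from 874 to 1517 rpm (log2 0.8, adjusted p = 0.00319) and miR-19b-3p from 1265 to 1991 rpm (log2 0.65, adjusted p = 0.00833). miR-24-3p rose from 111.63, 122.29 and 100.98 rpm to 191.46, 192.9 and 190.02 (log2 0.78, adjusted p = 0.00692; lost without library 3 of 0 h, 0.0648). Of the 14 tested members of the miR-17 to miR-92 cluster 2 rose and 1, miR-19c-3p, fell on both scales, while as a share 6 were higher and 1 lower, with a median of log2 0.55 beside -0.13 for all tested miRNAs.

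The miR-99, miR-100 and miR-125 group, whose precursors lie together with let-7 in vertebrate genomes, had the lowest median of all lists at 24 h. There 7 of its 8 tested members were lower on both scales, all but miR-125c-5p (7.29 rpm at 0 h and 6.18 at 24 h, log2 -0.19, adjusted p = 0.699). The median of the 8 was log2 -2.42 in rpm and -1.77 as a share, against -0.96 and -0.13 for all tested miRNAs. miR-100-5p, which targets mTOR in mammals, was at 20330.8, 19127.7 and 19729.2 rpm at 0 h, 10135, 7507.55 and 8821.27 at 4 h, and 1877.39, 1647.16 and 2107.62 at 24 h, a fall of 10.5-fold (log2 -3.4, SE 0.29, adjusted p = 9.84e-09) and 5.77-fold as a share. miR-99-5p, which differs from miR-100 by few bases, fell from 2953.77, 3247.76 and 2659.79 rpm to 336.15, 281.8 and 390.49 (log2 -3.14, SE 0.28, adjusted p = 1.03e-08), after 3347 rpm at 4 h. miR-125b-5p fell from 6317.13, 8186.43 and 7251.78 rpm to 949.03, 910.5 and 987.57 (log2 -2.92, adjusted p = 2.03e-10). In rpm every 24 h value of these 3 lay below every value of the 4 earlier hours. A lowest rpm at 24 h, when the listed total was lowest too, was not particular to these 3. Among all miRNAs called over the 5 hours on both scales, 70 were lowest at 24 h in rpm and 39 as a share. The summed group held 5.15% to 5.29% of the listed total at 0 h, 1.77% to 2.45% at 12 h and 0.965% to 1.24% at 24 h.

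In control fish the 24 h means of miR-100-5p and miR-99-5p were also below those of 0 h, which was not tested. There miR-100-5p was at 14789 ± 2580 rpm at 0 h, 29528 ± 4070 at 4 h and 3018 ± 220 at 24 h, and miR-99-5p at 3228 ± 379, 5698 (5547 to 5849) and 671 ± 16.5 rpm. The 2 courses differed for miR-100-5p (adjusted p = 0.00175 in rpm and 0.0238 as a share), whose 4 h mean was below that of 0 h in hypoxia and above it in control, and for miR-99-5p in rpm (adjusted p = 0.0187; as a share 0.21).

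Further falls at 24 h were of single miRNAs. miR-365-3p was at 35.75, 55.14 and 45.45 rpm at 0 h and 2.5, 2.38 and 2.61 rpm at 24 h (log2 -3.7, SE 0.27, adjusted p = 5.76e-10). miR-1388-5p, a miRNA described in fish, went from 133.75, 178.54 and 156.15 rpm to 13.24, 16.67 and 14.96 (log2 -3.29, SE 0.28, adjusted p = 9.91e-09). In control fish its mean was also lower at 24 h (19.9 rpm) than at 0 h (80.2 rpm), which was not tested. miR-126a-3p, the other member of the endothelial pair, was listed at 16789.1 rpm in all 3 libraries at 0 h, at 11205.8 rpm in all 3 at 12 h and at 11.91 rpm in all 3 at 24 h, so its fall (log2 -10.34, SE 0.47, adjusted p = 6.35e-11) rests on 1 measured value per group. With widened standard errors 24 miRNAs were still called at 24 h in rpm (11.8%) and 8 as a share (3.92%), miR-100-5p, miR-122-5p, miR-125b-5p, miR-126a-3p, miR-1388-5p, miR-196a-5p, miR-199-5p and miR-365-3p.

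Several markers of other cell types were lower at 24 h too, though not every list fell as a share. Of 8 tested stromal markers 5 fell on both scales, with a median of log2 -1.95 in rpm and -1.11 as a share. miR-199-5p reached 1394.73, 1517.58 and 1640.42 rpm (log2 -3.07, adjusted p = 2.3e-10) and miR-143-5p, of smooth muscle, went from 34.5 to 4.38 rpm (log2 -2.71, adjusted p = 1.15e-07), whereas the abundant partner arms were not called, with miR-199-3p at 22406 and 11556 rpm (log2 -0.94, adjusted p = 0.136) and miR-143-3p at 9955 and 7516 rpm (log2 -0.4, adjusted p = 0.333). Of 6 tested endothelium markers 3 fell on both scales, miR-126a-3p, miR-126a-5p and miR-222a-3p. The summed erythrocyte list, both arms of miR-144, was 2146 to 2327 rpm at 0 h and 502 to 578 rpm at 24 h, with miR-144-3p at 301.02, 287.36 and 294.19 rpm. miR-144-5p was lower in rpm (log2 -1.36, adjusted p = 0.0117) and not called as a share (log2 -0.55, adjusted p = 0.319). Of 5 tested leukocyte markers 2 fell on both scales, miR-142a-3p and miR-142b-3p, which were listed with the same values throughout and are 1 measurement. Scaled by the median of ratios they were not called, so this fall depended on the scale. The summed hepatocyte list, both arms of miR-122, was 4933 to 5764 rpm at 0 h and 18457 to 39383 rpm at 24 h. As shares of the listed total, the stromal list went from 6.32% to 7.93% at 0 h to 5.8% to 5.97% at 24 h and the endothelium list from 7.96% to 8.49% to 2.84% to 3.12%. The endothelium sum took in miR-126a-3p, at 16789 and 11.9 rpm, and miR-221-3p, at 3898 rpm and a listed 0. Its members miR-126b-3p, miR-126b-5p and miR-222a-5p were not called as a share at 24 h (adjusted p = 0.633, 0.0796 and 0.379). At 12 h the stromal list already held 4.24% to 6.0%. The summed epithelium and neuron lists were lower in rpm at 24 h but higher as a share. The epithelium list held 0.411% to 0.433% at 0 h and 0.478% to 0.565% at 24 h, and the neuron list 0.343% to 0.466% and 0.509% to 0.526%. These sums were led by miR-200a-3p (1228 rpm at 24 h) and miR-128-3p (1783 rpm), not called as a share (adjusted p = 0.34 and 0.127). Members went both ways. miR-200a-5p, miR-200b-5p, miR-137-3p and miR-153b-3p were lower on both scales (share log2 -1.38, -0.81, -2.12 and -1.09). As a share miR-9-5p was higher (log2 1.48, adjusted p = 0.0149). The part of cell composition in these differences was not tested.

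Of 6 tested members of the list of p53 and apoptosis miRNAs, which holds miR-34 and the miR-15 and miR-16 family that restrains the cell cycle, 4 fell on both scales at 24 h, all of them miR-16 members. miR-16a-5p went from 1943 to 421 rpm (log2 -2.25, adjusted p = 6.86e-07) and miR-16b-5p from 5204 to 1283 rpm (log2 -2.05, adjusted p = 2.8e-07), while miR-34a-5p, a p53 target in mammals, was at 5.96 and 2.85 rpm and was not called as a share (adjusted p = 0.693). Among 14 tested lipid and glucose metabolism miRNAs 1, miR-27c-3p, fell on both scales at 24 h, with 9 lower in rpm and 3 higher and 1 lower as a share. The inflammation list gave 0 of 8 on both scales in limma at 24 h, with 3 lower in rpm. The miR-30 and miR-181 families gave 0 of 7 and 0 of 3 on both scales, with 5 and 2 lower in rpm.

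**Figure D4:**
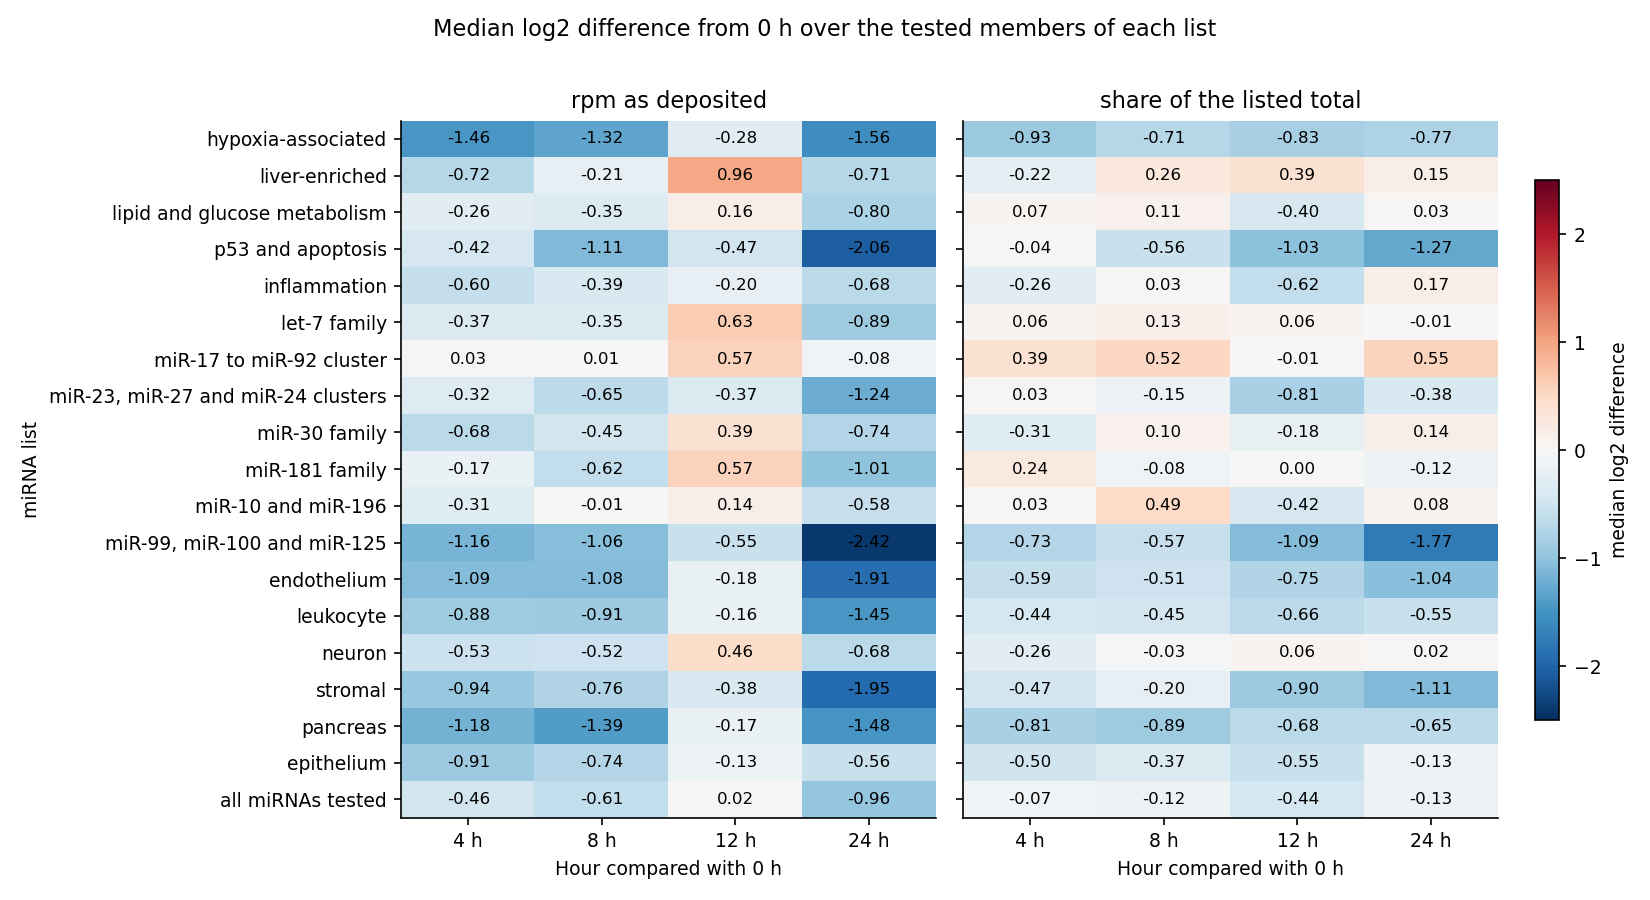
Median log2 difference from 0 h over the tested members of each miRNA list at 4, 8, 12 and 24 h of moderate hypoxia, in rpm as deposited (left) and as a share of the listed total (right), with all tested miRNAs in the bottom row. The miR-99, miR-100 and miR-125 list was lowest at 24 h on both scales (-2.42 and -1.77).

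Among successive hours, the fewest miRNAs moved alike on both scales from 8 to 12 h (2.76%). On each scale alone the step from 4 to 8 h had the fewest calls. In it, when the listed total hardly moved, 11 miRNAs rose (5.14%) and 11 fell in rpm (10.3% called), 15 rose (7.01%) and 7 fell (3.27%) as a share, and 18 moved alike on both scales (8.41%). miR-153b-3p returned from 5.98, 1.6 and 3.79 rpm to 21.92, 18.15 and 25.69 (log2 2.41, adjusted p = 0.000374). miR-146a-3p, the passenger arm of an inflammation-induced miRNA, went from 26.33, 4.8 and 15.56 rpm to 44.61, 47.74 and 50.87 (log2 1.95, adjusted p = 0.012) and miR-429a-3p from 155.57, 47.98 and 101.78 rpm to 211.91, 216.5 and 221.1 (log2 1.31, adjusted p = 0.0191). Both rises rested on the low library 2 of 4 h and gave log2 0.83 (adjusted p = 0.16) and 0.47 (0.299) without it, and log2 3.07 and 2.15 without library 1 of 4 h. They were also lost without library 1 or 3 of 8 h (0.0515 to 0.0917).

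miR-126b-3p, miR-144-3p and miR-489-3p fell from 4 to 8 h, the first from 13956.4 rpm in all 3 libraries to 19.33, 0 and 19.64. miR-144-3p fell from 1429.48, 1511.91 and 1594.34 rpm (log2 -2.1, adjusted p = 0.00359; -1.48 and 0.0741 without library 3 of 8 h) and miR-489-3p from 12.57, 17.02 and 21.48 rpm to 5.95, 5.81 and 5.88 (log2 -1.34, adjusted p = 0.00337). The count of this step was the least stable, at 72 without library 1 of 4 h, 14 without library 2 of 4 h, and 5, 14 and 6 without libraries 1, 2 and 3 of 8 h. With widened standard errors limma called 0, with 2 at an unadjusted p under 0.05.

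From 8 to 12 h 86 miRNAs rose (39.6%) and 1 fell (0.461%) in rpm (40.1% called), while as a share 5 rose (2.3%) and 43 fell (19.8%; 22.1% called), and 6 moved alike on both scales (2.76%). By the median of ratios 14 were higher and 14 lower. miR-737-5p, a fish miRNA, rose from 46.84, 43.32 and 39.79 rpm to 234.43, 229.64 and 239.23 (log2 2.41, SE 0.33, adjusted p = 1.87e-05; as a share 2.53-fold, adjusted p = 0.00368). miR-142a-5p, a miRNA of blood cells, rose from 1397.55, 1375.31 and 1419.79 rpm to 5830.07, 5565.81 and 6094.32 (log2 2.06, adjusted p = 0.000165; as a share 1.95-fold, adjusted p = 0.0471). miR-126b-3p was back at 12288, 13171.1 and 11405 rpm. miR-140-5p, a miRNA of cartilage, was called higher in rpm (log2 0.51, adjusted p = 0.0408) and lower as a share (log2 -0.58, adjusted p = 0.0373), so its direction depended on the scale.

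From 12 to 24 h 6 of 209 miRNAs rose (2.87%) and 69.4% fell in rpm (72.2% called), against 33 higher (15.8%) and 16 lower (7.66%) as a share (23.4%), and 22 moved alike (10.5%). By the median of ratios 26 were higher and 25 lower. With widened standard errors 12 were called in rpm (5.74%) and 2 as a share (0.957%), miR-122-5p and miR-126a-3p. The largest rises on both scales were miR-196a-5p (log2 2.47), miR-122-5p (2.11, SE 0.3, adjusted p = 6.42e-06) and miR-7a-5p (1.17; adjusted p = 0.07 and 0.0756 without library 2 or 3 of 12 h). miR-365-3p fell from 33.95, 35.43 and 32.46 rpm (log2 -3.32, adjusted p = 5.56e-09) and miR-100-5p from 11535.6, 9071.02 and 14000.1 rpm (log2 -2.6, adjusted p = 4.41e-07). Lower in rpm and higher as a share were 4 miRNAs, miR-140-5p, miR-20a-5p, miR-301c-3p and miR-454b-3p.

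Of the 3 tested hypoxia-associated miRNAs none was called higher than 0 h at any hour, in rpm or as a share. Against the hour before, all 3 were higher in rpm from 8 to 12 h, as were 39.6% of all tested miRNAs. From 12 to 24 h all 3 were lower in rpm, as were 69.4% of all tested. As a share 0 of the 3 were called in either step. miR-210-3p was at 315.81, 355.08 and 276.54 rpm at 0 h, 171.13, 75.17 and 123.15 at 4 h, 126.76, 107.47 and 146.06 at 8 h, 296.82, 218.73 and 257.78 at 12 h and 123.58, 130.65 and 137.72 at 24 h. It changed in rpm (adjusted p = 0.00102), high at 0 and 12 h, and was not called as a share over the hours (adjusted p = 0.0647). Against 0 h its share was lower at 4 h (log2 -0.93, adjusted p = 0.0374) and at 12 h (-0.83, adjusted p = 0.045). At 4 h 2 of the 3, miR-210-3p and miR-462-5p, fell on both scales. miR-210-5p, its partner arm, was at 142.38, 127.95 and 113.52 rpm at 0 h, with later means of 80.5, 71.8, 186 and 42.6 rpm (adjusted p = 0.000191 in rpm and 0.168 as a share). miR-462-5p was at 4966.05, 6879.72 and 5922.89 rpm at 0 h, and its later hour means were 1750, 2031, 4845 and 1561 rpm (adjusted p = 4.66e-05 in rpm and 0.0113 as a share). Its share fell from 0.919% at 0 h to 0.364% at 4 h and stayed between 0.443% and 0.515% from 8 h on. miR-731-5p was listed at 0 in all libraries except those of 12 h, where all 3 held 177.41 rpm.

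The 5 most abundant miRNAs, miR-26a-5p, miR-181a-5p, miR-192-5p, let-7a-5p and miR-22a-3p, held 36.1% to 48.5% of the listed total. miR-26a-5p, a growth-restraining liver miRNA in mouse, had hour means of 94270, 85477, 59954, 106947 and 37279 rpm, and its share went from 18% at 4 h to 10.5% at 24 h (adjusted p over the hours 0.00316 as a share). miR-192-5p, abundant in liver and gut, was at 51438 rpm at 0 h, 105693 at 12 h and 25496 at 24 h, and at 4 h its 3 libraries stood at 39333.1, 22997.1 and 3116.1 rpm, the widest spread of these 5. miR-181a-5p followed the listed total, at 9.19% of it at 0 h, 11.5% at 4 h and 9.15% at 24 h (adjusted p = 0.419 as a share). Of 44 miRNAs with at least 1000 rpm at every hour, the shares of miR-181a-5p, miR-199-3p, miR-152-5p, miR-148-5p and miR-10c-5p had the narrowest range of hour means. For miR-199-3p the libraries of 4 h lay far apart, from 2767 to 24574 rpm, and its fitted share at 4 h was log2 -0.97 from 0 h (adjusted p = 0.172), so its mean hides a wide spread. miR-148-5p, for instance, went from 2358 rpm at 0 h to 3277 at 12 h and 1111 at 24 h, while its share stayed between 0.311% and 0.416%.

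Both arms could be followed for 39 precursors, and the ratio of the 5p to the 3p mean varied over the hours by log2 0.48 to 10.83, with a median of 1.5. The 2 widest were miR-126b, at 0.4 at 0 h and 301 at 8 h, and miR-126a, at 0.365 at 0 h and 83.8 at 24 h, each at the hour when its 3p arm was near 0. Their 5p arms were still at 3906 rpm (miR-126b-5p at 8 h) and 998 rpm (miR-126a-5p at 24 h). For miR-122 the ratio was 52.2, 53.2, 54.2 and 71.7 from 0 to 12 h and 642 at 24 h. The ratio was not tested, and arms of 1 hairpin are counted from the same libraries.

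**Figure D5:**
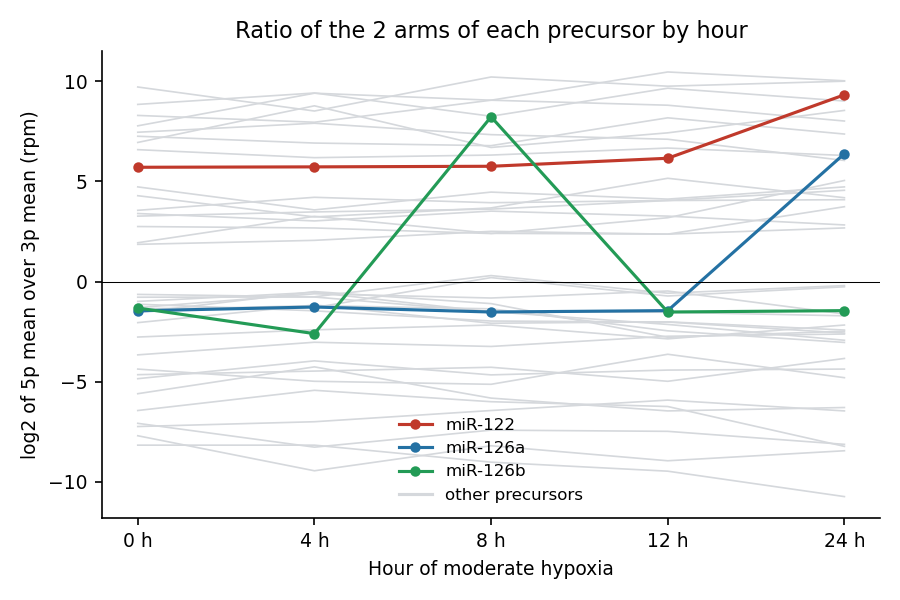
Log2 of the ratio of the 5p to the 3p hour mean for 39 precursors over the hours of moderate hypoxia, with miR-122, miR-126a and miR-126b in colour and the others in grey. The miR-122 ratio was between 52.2 and 71.7 up to 12 h and 642 at 24 h.

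Some miRNAs switched between a listed level and 0. At 0 in all 3 libraries of an hour were 24 miRNAs at 0 h, 27 at 4 h, 28 at 8 h, 19 at 12 h and 44 at 24 h, 57 in all, of which 5 were at 0 in all 15 libraries. Of these 57, 8 reached at least 100 rpm at another hour. miR-221-3p, an endothelial miRNA, was at 3897.94, 3505.23 and 4290.64 rpm at 0 h and at 0 at 24 h, whereas its partner arm miR-221-5p was at 0 at 0 and 8 h, at 5544.59 rpm in all 3 libraries of 12 h and at 1472.31, 1464.58 and 1480.04 rpm at 24 h. let-7b-5p appeared at 4 h alone, with 1337.53 rpm in each library, and miR-15a-5p at 551.03 rpm in all 3 of 0 h and at 0 later. miR-93-5p was at 309.16, 346.41 and 271.92 rpm at 0 h and at 0 at 24 h, and miR-93-3p was at 0 at 0 h and 185.39, 183.37 and 187.4 rpm at 24 h. The remaining ones were miR-181c-5p and miR-731-5p. A listed 0 can be a failed estimate, so no fold is given.

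Set against control fish sampled at the same hours, 134 of 197 miRNAs had a different course in rpm (68.0% called), 92 as a share (46.7%) and 78 on both (39.6%), by limma's F-test of the difference. The 5 smallest adjusted p were those of miR-126b-3p, miR-126a-3p, miR-200b-3p, miR-365-3p and miR-2184-5p. miR-200b-3p was at 253 rpm at 0 h, 81.7 at 4 h and 376 at 12 h of hypoxia and at 121, 267 and 279 rpm in control at those hours, so that from 0 to 4 h it went down in hypoxia and up in control (adjusted p = 4.7e-05; 0.00105 as a share). miR-2184-5p, a fish miRNA, was at 11669.6, 12837.4 and 10501.9 rpm at 0 h and 4187.91, 2192.08 and 3189.99 at 4 h of hypoxia, and at 7018 ± 1530 and 9673 ± 486 (n = 3) rpm in control. At 24 h the mean of miR-365-3p was below that of 0 h in both, at 2.5 rpm in hypoxia and 10.1 ± 2.52 in control. The pancreas marker miR-216b-5p also differed in course (adjusted p = 0.00244 in rpm and 0.0333 as a share), whereas miR-217-5p did so in rpm (adjusted p = 0.0226; as a share 0.203). With widened standard errors 2 courses differed, those of miR-126a-3p and miR-126b-3p (1.02%).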

How the data were processed

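Per the labels, small RNA of bass liver was gel purified and sequenced on a HiSeq instrument. The authors deposited 1 value per miRNA and library, in rpm as read from the values. Trimming, aligner, genome build and the denominator of rpm were not given in any source, and no sequences are printed.

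A value equal to the mean of the other 2 of its group (within 0.0101 rpm or 0.1%) was set missing, and 3 identical values counted once. Where every library of a group held 0, that group was missing for the miRNA. A filter at a mean of 1 rpm over 45 libraries passed 228 miRNAs, and the 227 with more than 1 measured value were fitted. The fit was on log2(rpm + 1) with limma 3.58.1 in R 4.3.3, with all 45 libraries in 15 groups. It used moderated variances with a trend, two-sided contrasts, and Benjamini-Hochberg adjustment within each comparison. The log2 differences, with 1 rpm added, understate changes of low miRNAs. Printed folds are ratios of hour means without it, so a fold and its log2 need not match. The step of a library was sought only among its low values (12 rpm or less), of which 86.7% to 100% were whole multiples of it. Whole reads were not recovered over all values, and the deposited values are scaled, so no count test was run. The fit was tested on simulated data.

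Members, lists and rules were chosen with earlier results of these data known. Named per comparison were the 5 largest rises and falls (3 for successive hours) called on both scales, with at least 10 rpm and no overlap of groups, plus up to 3 members of each list, the miR-210, miR-462, miR-731 and miR-122 arms, the 5 most abundant miRNAs and the 5 steadiest. Further list members were named after their values were seen. The labels do not say that replicate numbers pair libraries, so the main fit held no replicate block.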

Additional observations from a re-analysis of the deposited data

Results flagged for a closer look

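The course over the hours differed between moderate hypoxia and control for 134 of 197 tested miRNAs in rpm (68.0%), by limma's F-test of the difference. As a share it differed for 92 (46.7%). Of those called in rpm, 14 picked by name or by smallest adjusted p are listed here. These were miR-126b-3p (adjusted p = 2.59e-10), miR-126a-3p (5.49e-08), miR-200b-3p (4.7e-05), miR-365-3p (9.92e-05) and miR-2184-5p (0.000174), the 5 with the smallest adjusted p, and, among those named for other reasons, miR-462-5p (0.000455), miR-122-5p (0.00068), miR-210-3p (0.000789), miR-26a-5p (0.00126), miR-181a-5p (0.00146), let-7a-5p (0.00185), miR-210-5p (0.00893), miR-192-5p (0.0173) and miR-22a-3p (0.0226). As a share of the listed total 8 of them were called too, the first 5 with 2.15e-09, 1.51e-08, 0.00105, 0.000788 and 0.00611, miR-462-5p with 0.00917, miR-122-5p with 0.0238 and miR-210-3p with 0.0432. The other 6 were not, with adjusted p of 0.0666 for miR-26a-5p, 0.349 for miR-181a-5p, 0.397 for let-7a-5p, 0.32 for miR-210-5p, 0.163 for miR-192-5p and 0.116 for miR-22a-3p.

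miR-126b-3p was near 0 at 8 h in hypoxia, and in control at 4 h (12.3 rpm), 12 h (65.3 rpm) and 24 h (6.38 rpm), against 9956 rpm at 0 h and 17892 rpm at 8 h. miR-126a-3p was at 3576 rpm or more at every hour of control. miR-462-5p had its highest control mean at 8 h (8439 rpm), an hour at which it stood at 2031 rpm in hypoxia. At 0 h it was at 2967 rpm in control and 5923 rpm in hypoxia. miR-210-3p was at 190, 339, 255, 140 and 94.2 rpm over the control hours.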

How the results depend on the processing

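Widened standard errors took away the most calls, and counting all 3 deposited values added the most. The scale also changed many calls. As a share 23.5% of tested miRNAs were called at 4 h, 15.8% at 8 h, 22.1% from 8 to 12 h and 23.4% from 12 to 24 h, and by the median of ratios 22.5% at 4 h, 15.3% at 8 h, 40.2% at 24 h, 12.9% from 8 to 12 h, 24.4% from 12 to 24 h and 37.1% against control. With standard errors widened 2.5 times it was 3.0% over time, 0.0%, 0.465%, 0.0% and 11.8% at 4, 8, 12 and 24 h, 0.0%, 0.461% and 5.74% for the successive hours and 1.02% against control. As a share, a setting chosen after seeing the data, widening gave 1.5%, then 0.0%, 0.465%, 0.0% and 3.92%, then 0.0%, 0.0% and 0.957%, and 1.02%. Counting all 3 deposited values gave 62.9%, 67.4% and 63.0% at 4, 8 and 12 h, 57.9% from 4 to 8 h and 69.6% from 8 to 12 h, since replaced values shrink the spread by construction. Fitting only the groups compared, with fewer samples, gave 13.9% at 12 h and 1.87% from 4 to 8 h, and entering groups at 0 as 0 rpm gave 15.8% from 4 to 8 h. A pseudocount of 0.1 rpm, no filter and a minimum mean of 10 rpm kept every total within 1.5 times. By direction the minimum of 10 rpm, under which fewer miRNAs were tested, gave 11 in place of 21 lower at 12 h, 5 in place of 8 higher at 24 h, 7 in place of 11 higher from 4 to 8 h, 3 in place of 6 higher from 12 to 24 h, and 0 in place of 1 lower from 8 to 12 h, where no filter gave 3.

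Leaving out 1 library gave 81.5% to 85.5% over time, 23.5% to 45.1%, 26.0% to 47.0%, 16.2% to 31.9% and 53.4% to 66.7% at 4, 8, 12 and 24 h, 2.34% to 33.6%, 29.5% to 44.7% and 65.1% to 73.2% for the successive hours, and 63.5% to 76.6% against control.

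With the replicate number as a block 84.8% were called over time, 31.4%, 30.1%, 23% and 56.9% at 4, 8, 12 and 24 h, 7.08%, 37.0% and 70.4% for the successive hours and 51.8% against control. Same-numbered libraries of different hours correlated at -0.132 to 0.115, over 0.1 in 1 of 30 pairs, and differently numbered ones at -0.181 to 0.202. All 3 deposited values entered these correlations, and replaced or identical values pull them toward 0. They therefore cannot tell whether same-numbered libraries shared more than a number. Among the results named by rule none changed direction under these settings. For the rises and falls named per comparison this was fixed in advance as a share, since they had to be called alike on both scales. miR-140-5p, miR-20a-5p, miR-301c-3p and miR-454b-3p, named for their change of direction, were called in opposite directions in rpm and as a share. Of the named results 14 lost their call as a share, 12 by the median of ratios, 4 under the block and 104 with widened errors.

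Depth limits the low miRNAs, of which a level of a few rpm rests on few reads, and the spread lost to replaced values cannot be recovered from the deposited values.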
